A study of Arabidopsis thaliana with 4 samples.

Results

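The type-A response regulators of Arabidopsis thaliana are the 10 genes ARR3, ARR4, ARR5, ARR6, ARR7, ARR8, ARR9, ARR15, ARR16 and ARR17, taken by locus code from the 27416 gene rows of the series. All 10 have a row. The annotation names AT2G41310 RR3, with ARR8 as a synonym, and it is called ARR8 here. The series compared whole seedlings of the Col-0 ecotype in 2 groups of 2 RNA-seq libraries, to ask which genes CNT1 regulates. Both groups carried cry1, a mutation of the gene for the blue-light receptor cryptochrome 1, and a transgene driven by the 35S promoter, which is active in most plant tissues. In the group CNT1 the genotype was 35S::CNT1-NLS-YFP;cry1, in which CNT1 is CRY1's N-terminal photolyase homology region, NLS a nuclear localisation signal and YFP a yellow fluorescent protein. In the group CNT1-G283E it was 35S::CNT1-G283E-NLS-YFP;cry1, the same fusion with the substitution G283E. Seeds were germinated on medium with 1% sucrose, kept cold for 3 days and given white light for 12 h. Blue light at 15 μmol/m2/s followed for 4 days, and the stated growth time was 4.5 days.

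The labels do not say whether replicates were separate cultures, so the p-values speak only to the spread of these libraries, and that spread may be technical. Nor do they say how many transgenic lines stand behind a genotype, so the substitution and the insertion or level of the transgene cannot be told apart. CRY1, whose row can hold transgene reads in both groups, was read at 823 and 825 RPKM in CNT1 and at 1152 and 1036 in CNT1-G283E, and does not check the labels. RPKM counts reads per kilobase of gene model, scaled to a fixed number of reads in the library. The values rest on 24436863 to 28524534 reads per library, recovered from the steps of the values at the shortest model length that gives whole reads. Root and green shoot markers were both read, with summed levels given with the marker lists.

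Cytokinins are plant hormones that promote cell division and shoot growth and restrain root growth. They bind receptor histidine kinases, which pass phosphate through phosphotransfer proteins to response regulators in the nucleus. Type-B response regulators are transcription factors that switch on the type-A genes. Type-A proteins consist mostly of the receiver domain that accepts the phosphate on an aspartate, lack a DNA-binding domain, and restrain the same pathway, so their transcripts are widely used as a readout of cytokinin signalling.

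The 45 coding bases around the codon of the phosphate-accepting aspartate, read 5′ to 3′ from the TAIR10.1 genome through the RefSeq annotation, are shown for all members because they hold the site that defines the receiver domain. Capitals mark the aspartate codon.
ARR3: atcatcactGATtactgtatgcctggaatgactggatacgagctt
ARR4: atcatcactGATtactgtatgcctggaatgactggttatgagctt
ARR5: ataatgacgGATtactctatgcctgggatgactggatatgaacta
ARR6: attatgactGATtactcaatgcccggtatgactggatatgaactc
ARR7: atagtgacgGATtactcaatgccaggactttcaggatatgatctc
ARR8: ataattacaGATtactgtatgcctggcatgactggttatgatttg
ARR9: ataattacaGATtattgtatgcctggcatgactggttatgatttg
ARR15: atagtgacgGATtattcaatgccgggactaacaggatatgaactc
ARR16: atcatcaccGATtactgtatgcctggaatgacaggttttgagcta
ARR17: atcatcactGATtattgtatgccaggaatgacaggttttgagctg
Each gene carried the same GAT codon. ARR8 and ARR9 differed at 1 of the 45 bases and ARR3 and ARR4 at 2, while the pair ARR5 and ARR6 differed at 6. The longest identical run between spliced models was 41 coding bases, in exon 3, for ARR3 with ARR4 (chr1:22066442-22066482 and chr1:3443277-3443317, both minus strand) and also 41 for ARR8 with ARR9 (chr2:17222728-17222768 and chr3:21110498-21110538, both plus strand). For the other 3 pairs it was 19 to 23 bases. How reads that match several genes were treated is not given in the sources used here. Of the spliced 30-base words of each model, 18 of 1125 in ARR3, 18 of 1988 in ARR4, 24 of 1596 in ARR9 and none in ARR5 also occur in another locus. ARR8 stands apart with 482 of 2280, shared with ARR9 and 5 other loci, among them AT2G09250, which overlaps it on the opposite strand. ARR6 has 319 of 1430, in its overlap with a neighbour. These words were counted on the TAIR10.1 models. The shortest lengths that fit the RPKM values were 1824 bases against an annotated 2370 for ARR8, and 974 against 1459 for ARR6. The shared stretches may therefore lie partly or wholly outside the bases that were counted. Coding lengths ran from 462 bases in ARR17 to 780 in ARR4, and the models had 5 exons, apart from ARR8 with 6.

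The family split by member. ARR4, ARR5, ARR6 and ARR8 were lower in CNT1 and ARR9 and ARR16 higher. Group means were apart by 3.61-fold for ARR6, 3.28-fold for ARR5, 2.06-fold for ARR16, 2.04-fold for ARR9, 2.02-fold for ARR4 and 1.41-fold for ARR8. ARR3 and ARR7 did not pass the test. ARR15 and ARR17 were close to the limit of detection and were not tested, since only genes that reached 1 RPKM in 2 or more libraries entered the test. So of the 8 members tested, 6 were called at an adjusted p under 0.05 in limma on log2(RPKM + 1), 2 higher and 4 lower. Among all 19201 genes tested 60% were called, 31.1% higher and 29% lower, so the number of members called is near the background. At least 2-fold changes on that scale were called for 3 of the 8 members, ARR5, ARR6 and ARR9, against 9.19% of all genes. That is 1 member higher, against 3.93% of all genes, and 2 lower, against 5.25%. ARR9 at 1.01 and ARR4 at -0.98 stood on either side of that line. Groups that did not overlap were seen for all 8 tested members and for 80.9% of all genes tested. The median difference of the 8 was -0.35 (log2, CNT1 minus CNT1-G283E, as in all differences here), against 0.02 over all genes tested.

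**Figure D1:**
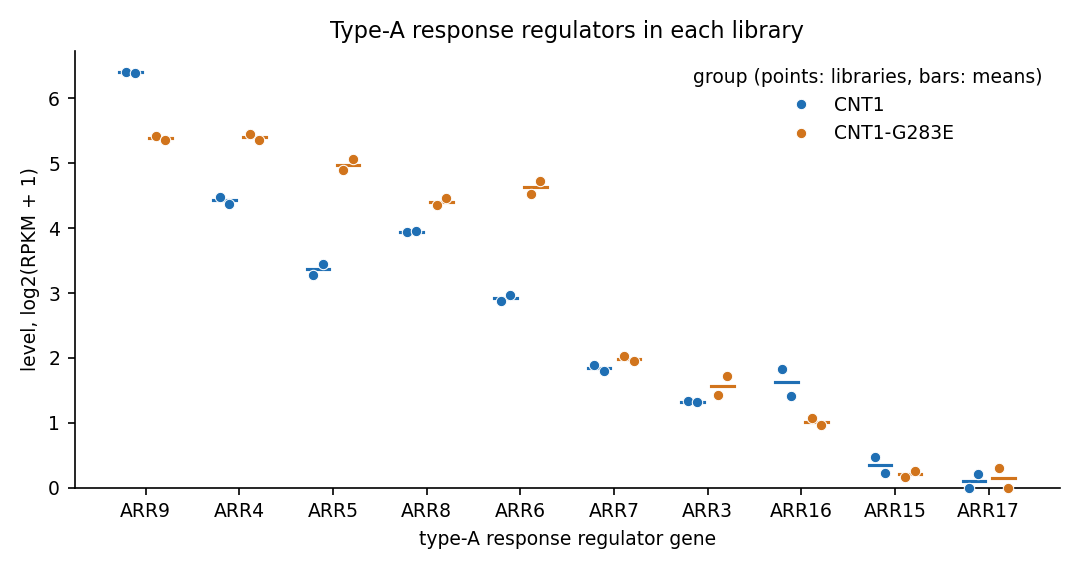
Level of each of the 10 genes as log2(RPKM + 1), with a point per library and a bar for the group mean, CNT1 in blue and CNT1-G283E in orange. ARR9 is the highest gene in CNT1 and stands above CNT1-G283E, while ARR4, ARR5, ARR6 and ARR8 are lower in CNT1 and ARR15 and ARR17 lie near 0.

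ARR5 (AT3G48100, chr3:17758427-17760950, minus strand) and ARR6 (AT5G62920, chr5:25252007-25254318, minus strand) are paralogues that are strongly induced by cytokinin. ARR5 was read at 8.75 and 9.87 RPKM in the CNT1 libraries and at 28.8 and 32.3 RPKM in the CNT1-G283E libraries. Both CNT1 libraries were low, and the gap between the groups was several times the spread within either. The difference was -1.61 ± 0.0797 (log2, SE; 95% interval -1.80 to -1.43; limma adjusted p = 1.72e-06). ARR6 was read at 6.37 and 6.83 RPKM in CNT1 and at 22.1 and 25.6 RPKM in CNT1-G283E. Its groups were as far apart, at -1.71 ± 0.0835 (95% interval -1.90 to -1.51; limma adjusted p = 1.64e-06). Only 1.21% of the genes tested had a lower difference than ARR5 and 0.953% a lower one than ARR6. These values rest on 724 reads of ARR5 in CNT1 and 2157 in CNT1-G283E, and on 364 and 1192 reads of ARR6. The pair kept nearly the same proportion, with ARR5 over ARR6 at 1.37 and 1.44 in CNT1 and 1.30 and 1.26 in CNT1-G283E. Over 348 of its 1459 exon bases in TAIR10.1, ARR6 overlaps AT5G62910 on the opposite strand. Whether these bases belonged to the counted model, and whether strand was used in counting, is not given. AT5G62910 was read at 16.7, 15.6, 15.8 and 15.5 RPKM in the 4 libraries, with no step between the groups of the size seen in ARR6.

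ARR4 (AT1G10470, chr1:3441988-3444360, minus strand), whose protein is known to bind phytochrome B and to stabilise its active form, was also lower. It was read at 21.4 and 19.7 RPKM in CNT1 and at 42.9 and 40.1 RPKM in CNT1-G283E. The CNT1 libraries were the low ones, with a 2.02-fold gap of means. The difference was -0.98 ± 0.0605 (log2, SE; 95% interval -1.12 to -0.84; limma adjusted p = 5.49e-06). Its paralogue ARR3 (AT1G59940) was far scarcer, at 1.53 and 1.49 RPKM in CNT1 and 1.69 and 2.30 in CNT1-G283E. The groups did not overlap, but the gap was smaller than the spread within CNT1-G283E, and at -0.24 ± 0.133 (95% interval -0.55 to 0.07) ARR3 was not called (limma adjusted p = 0.149). Without CNT1-G283E replicate 1, ARR3 was at -0.39 with an adjusted p of 0.039. The ARR3 values rest on 90 reads from CNT1 and on 107 from the other group.

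ARR9 (AT3G57040, chr3:21109414-21111503, plus strand) was the most abundant member in both CNT1 libraries and was higher there. It was read at 84.1 and 83.3 RPKM in CNT1 and at 42.0 and 40.1 RPKM in CNT1-G283E. The 2 CNT1 libraries agree closely and lie well above the others, with a 2.04-fold gap of means. The difference was 1.01 ± 0.0436 (log2, SE; 95% interval 0.91 to 1.11; limma adjusted p = 8.76e-07), on 6419 and 2866 reads, and 3.87% of the genes tested had a higher difference. Its paralogue ARR8 (AT2G41310, chr2:17221840-17224880, plus strand) differed in the other direction, at 14.4 and 14.5 RPKM in CNT1 and 19.5 and 21.1 RPKM in CNT1-G283E. That is -0.46 ± 0.0617 (95% interval -0.61 to -0.32; limma adjusted p = 0.000375), on 1489 and 1901 reads. So within a library ARR9 exceeded ARR8 by 5.85 and 5.76 times in CNT1 and by 2.16 and 1.90 times in CNT1-G283E. These ratios do not overlap, and the exact two-sided permutation p of 0.333 is the smallest that 2 libraries against 2 can give. Besides ARR9 and AT2G09250, which has no row of its own, the loci that share 30-base words with ARR8 are AT1G49700, AT2G07440, AT2G11620 and AT3G45800. How far this affects the value of ARR8 is uncertain, since the shared bases may lie outside the model counted. AT1G49700 was at 4.55 and 5.30 RPKM in CNT1 and 2.02 and 2.39 in CNT1-G283E, opposite in direction to ARR8. The other 3 were low, AT2G07440 at 0.0853 and 0 RPKM against 0.270 and 0.0996, AT2G11620 at 0.404 and 0.289 against 0.426 and 0.388, and AT3G45800 at 0.613 and 0.703 against 0.854 and 0.692.

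**Figure D2:**
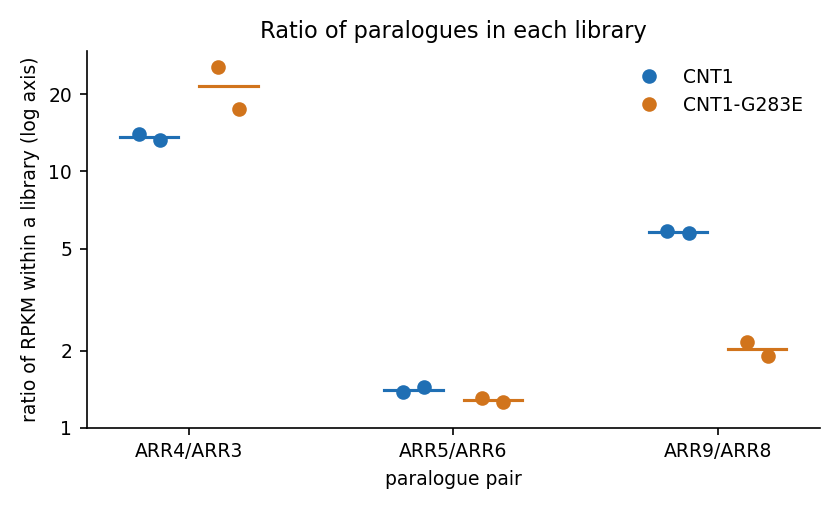
Ratio of the RPKM of 2 paralogues within each library, on a log axis, with points for libraries and bars for group means. ARR5/ARR6 stays between 1.26 and 1.44, ARR9/ARR8 falls from near 5.8 in CNT1 to near 2.0 in CNT1-G283E, and ARR4/ARR3 lies at 13.2 to 14.0 in CNT1 and at 17.5 to 25.4 in CNT1-G283E.

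ARR7 (AT1G19050) and ARR15 (AT1G74890) are a pair known for roles in meristems, where the shoot stem cell regulator WUS represses ARR7. ARR7 was read at 2.69 and 2.47 RPKM in CNT1 and at 3.07 and 2.89 RPKM in CNT1-G283E. The groups lay close together without overlapping, and the difference of -0.15 ± 0.103 (log2, SE; 95% interval -0.39 to 0.09) was not called (limma adjusted p = 0.236). ARR15 was read at 0.395 and 0.172 RPKM in CNT1 and at 0.119 and 0.198 RPKM in CNT1-G283E, and the groups overlapped. Behind these values stand 7 and 3 reads against 2 and 3. Corrected for depth, the ratio of reads was 1.82, with an exact 95% interval of 0.567 to 6.78, so no difference in ARR15 was detectable at this depth.

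ARR16 (AT2G40670, chr2:16969854-16971234, plus strand) and ARR17 (AT3G56380) are the members with the shortest coding sequences, and both have been linked to the stomatal lineage. ARR16 was read at 2.57 and 1.67 RPKM in CNT1 and at 1.10 and 0.959 RPKM in CNT1-G283E. Both CNT1 libraries were higher, but they differed from each other by more than the lower one did from either CNT1-G283E library. The difference was 0.61 ± 0.158 (log2, SE; 95% interval 0.24 to 0.98; limma adjusted p = 0.0115), and the ratio of means was 2.06. It rests on 77 and 34 reads, a depth-corrected ratio of 2.06 with an exact 95% interval of 1.36 to 3.18. Without CNT1 replicate 1, ARR16 was at 0.40 with an adjusted p of 0.0871, and was no longer called. With a pseudocount of 0.1 its difference was 0.95 and with limma-voom on recovered reads 0.99, since the added 1 RPKM shrinks the difference of a low gene. Of ARR17, the CNT1 libraries held 0 and 2 reads and those of CNT1-G283E 3 and 0. Where it was listed at 0, 3 reads would have given 0.228 RPKM in CNT1 replicate 1 and 0.266 in CNT1-G283E replicate 2, and the CNT1 library with reads was at 0.154 RPKM and that of CNT1-G283E at 0.240 RPKM. No library held more than 3 reads, so no difference in ARR17 was detectable at this depth. Intervals and limits from reads cover counting error only.

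**Figure D3:**
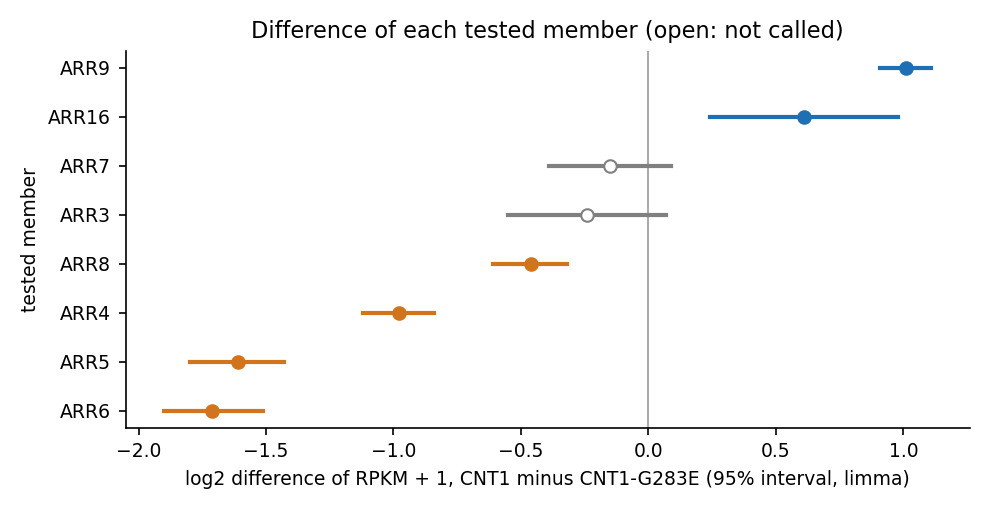
Difference of each of the 8 tested members, CNT1 minus CNT1-G283E, on the log2(RPKM + 1) scale, with 95% intervals from limma. Filled blue points were called higher, filled orange points lower, and the open points of ARR3 and ARR7 were not called, their intervals reaching 0.07 and 0.09.

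Summed over the family, the gap between the groups, as a ratio of means, was smaller than in any called member. The 10 RPKM values added up to 142.3 and 140.1 in CNT1 and to 161.5 and 165.5 in CNT1-G283E, means of 141 ± 1.54 and 164 ± 2.84 (SD, n = 2). The sums do not overlap, and their ratio was 0.863. What differed more was the make-up of the sum. ARR9 supplied 59.2% and 59.5% of it in CNT1 but 26.0% and 24.2% in CNT1-G283E. ARR4, ARR5 and ARR6 together supplied 25.7% and 26.0% in CNT1 and 58.1% and 59.2% in CNT1-G283E. Their own summed level was 36.5 and 36.4 RPKM in CNT1 and 93.8 and 98.0 RPKM in CNT1-G283E. Leaving ARR9 out, the other 9 members summed to 58.1 and 56.8 RPKM in CNT1 and to 119 and 125 RPKM in CNT1-G283E, a 2.13-fold gap of means. Both subsets follow the directions seen in these libraries, so the size of their gaps is partly set by that choice. For each of these sums and shares the exact two-sided permutation p was 0.333, the smallest this design allows. In CNT1 the order of levels was ARR9, ARR4, ARR8, ARR5, ARR6. In CNT1-G283E ARR9 and ARR4 led and could not be ranked, since 42.0 and 40.1 RPKM against 42.9 and 40.1 differ by less than the spread, and ARR5, ARR6 and ARR8 followed.

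**Figure D4:**
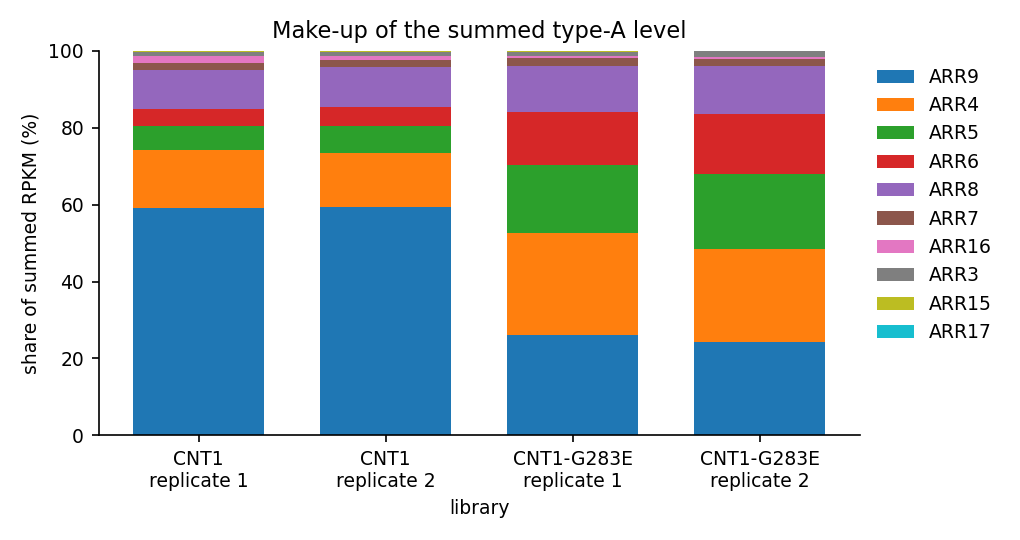
Share of each member in the summed RPKM of the family, in percent, with a stacked bar per library. ARR9 fills 59.2% and 59.5% of the CNT1 bars and 26.0% and 24.2% of the CNT1-G283E bars, where ARR4, ARR5 and ARR6 take the larger part.

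The bases upstream of the annotated start of the genes that differed most are given to show what the members that moved together do and do not have in common. Windows are read 5′ to 3′ toward the annotated start in TAIR10.1. They are 250 bases for ARR5 (chr3:17760951-17761200, minus strand), ARR6 (chr5:25254319-25254568, minus strand) and ARR4 (chr1:3444361-3444610, minus strand), and for ARR9 the 109 bases free of annotated exons (chr3:21109305-21109413, plus strand). The rest of the 250-base window of ARR9 holds exons of AT3G08825.1 and of another ARR9 model, AT3G57040.2. So the 109 bases lie downstream of an exon of that model, not upstream of the whole gene. The windows of ARR3, ARR16 and ARR17, not printed, also hold exons of other models of the same gene. Capitals mark, on either strand, the words AGATT, the variant GGATT and the variant AGATC of the core bound by type-B regulators, and also CACATG, a word bound by bHLH factors.
ARR5: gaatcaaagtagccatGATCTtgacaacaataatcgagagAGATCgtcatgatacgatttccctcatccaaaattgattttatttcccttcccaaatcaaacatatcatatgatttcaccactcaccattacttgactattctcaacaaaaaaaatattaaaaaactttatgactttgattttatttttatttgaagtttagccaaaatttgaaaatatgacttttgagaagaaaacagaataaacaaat
ARR6: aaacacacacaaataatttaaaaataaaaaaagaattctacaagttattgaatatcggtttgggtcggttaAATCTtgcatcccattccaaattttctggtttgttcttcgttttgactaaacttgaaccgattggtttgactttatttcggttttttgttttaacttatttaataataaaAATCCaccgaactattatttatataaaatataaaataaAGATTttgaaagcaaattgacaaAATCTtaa
ARR4: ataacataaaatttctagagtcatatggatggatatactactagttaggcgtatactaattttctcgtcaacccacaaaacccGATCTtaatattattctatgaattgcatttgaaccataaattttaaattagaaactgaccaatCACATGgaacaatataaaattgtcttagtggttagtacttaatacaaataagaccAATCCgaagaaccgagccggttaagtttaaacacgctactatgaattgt
ARR9: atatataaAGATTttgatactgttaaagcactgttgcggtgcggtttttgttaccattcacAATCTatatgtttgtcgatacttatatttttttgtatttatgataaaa
ARR6 held AGATT 3 times, at positions -179, -31 and -8 from the start, and GGATT once, while ARR5 held neither and had AGATC 2 times. ARR4 had GGATT once, at -49, with AGATC once, at -167, and CACATG once, at -104. ARR9 had AGATT 2 times, at -101 and -48. In windows of 250 bases, AGATT was found in 8 of the 10 members and in 63.6% of 26694 gene models, GGATT in 5 members and 37.9%, and AGATC in 4 members and 26.7%. CACATG was found in 2 members, ARR4 and ARR8, and in 11% of models. The G-box word CACGTG was found in none of the 10 and in 6.74% of models. Such matches are letters in a window and not binding sites. The gene models behind the RPKM values differ in length from those of TAIR10.1 in every member, with a fitted 1275 against 2017 bases in ARR4. They may also start elsewhere, and positions are counted from the TAIR10.1 start.

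Genes of the rest of the pathway are given from lists chosen for their roles. Their counts of calls stand beside 31.1% of all genes tested called higher and 29% called lower. No list was tested as a set. Among the receptors, AHK4 was lower in CNT1, at 4.73 and 4.29 RPKM against 6.43 and 7.06, and AHK3, the most abundant of the 3, was lower by a small amount, at -0.16 ± 0.0431 (log2, SE; limma adjusted p = 0.0121). The AHK3 call was lost without either CNT1 library (adjusted p = 0.11 and 0.0537) and without the intensity trend (0.0519). AHK2 did not pass, at 0.05 ± 0.0666 (95% interval -0.11 to 0.20). Of 5 tested phosphotransfer proteins, AHP5 (-0.69) and AHP3 (-0.34) were lower and AHP4 higher (0.63). Of 7 tested type-B regulators, 4 were lower and 1 higher, with a median of -0.21. ARR1, an activator of the type-A genes, was at 29.9 and 31.0 RPKM in CNT1 and 39.7 and 40.5 in CNT1-G283E, and ARR11 differed by -0.77. ARR14 went the other way, at 4.34 and 4.53 RPKM in CNT1 against 1.42 and 1.37 (1.18 ± 0.101, log2, SE; limma adjusted p = 3.27e-05). The type-C regulators ARR22 and ARR24 were listed at 0 in every library.

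Of 19 listed genes that make or activate the hormone, 11 were tested. Of these 6 were lower and 3 higher in CNT1, with a median of -0.62. The isopentenyltransferases IPT3, which starts cytokinin synthesis, and IPT9, which modifies transfer RNA, were higher, at 0.92 and 0.60 (log2). CYP735A2, the hydroxylase that makes trans-zeatin-type cytokinins, was lower, at 0.929 and 0.882 RPKM against 4.22 and 3.07 (-1.27 ± 0.141, log2, SE; limma adjusted p = 0.000137). Like another of the 6 lower genes, CYP735A2 reached 1 RPKM only in CNT1-G283E, and so entered the test through the group where it was high. LOG8, which releases the active base, was lower too, at 27.3 and 26.5 RPKM against 52.6 and 57.9. Of 4 tested oxidases that break cytokinins down, CKX5 (-0.68) and CKX6 (-0.87) were lower and CKX7 higher (0.48), the last call being lost without CNT1 replicate 2 (adjusted p = 0.0975). Among cytokinin response factors 2 of 5 tested were lower, CRF3 (-0.84) and CRF6 (-0.40), and none passed as higher. Of the 4 KMD F-box proteins, which target type-B regulators for breakdown, KMD1 (-0.82) and KMD3 (-0.78) were lower. Of 4 other cytokinin-induced genes tested, GATA22 (-0.84), a greening factor, and HAT22 (-0.75), a homeodomain-leucine zipper gene, were lower, and the expansin EXPA1 (0.35) was higher. All calls in this paragraph are from limma at an adjusted p under 0.05, a threshold at which 31.1% of all genes tested were higher and 29% lower.

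**Figure D5:**
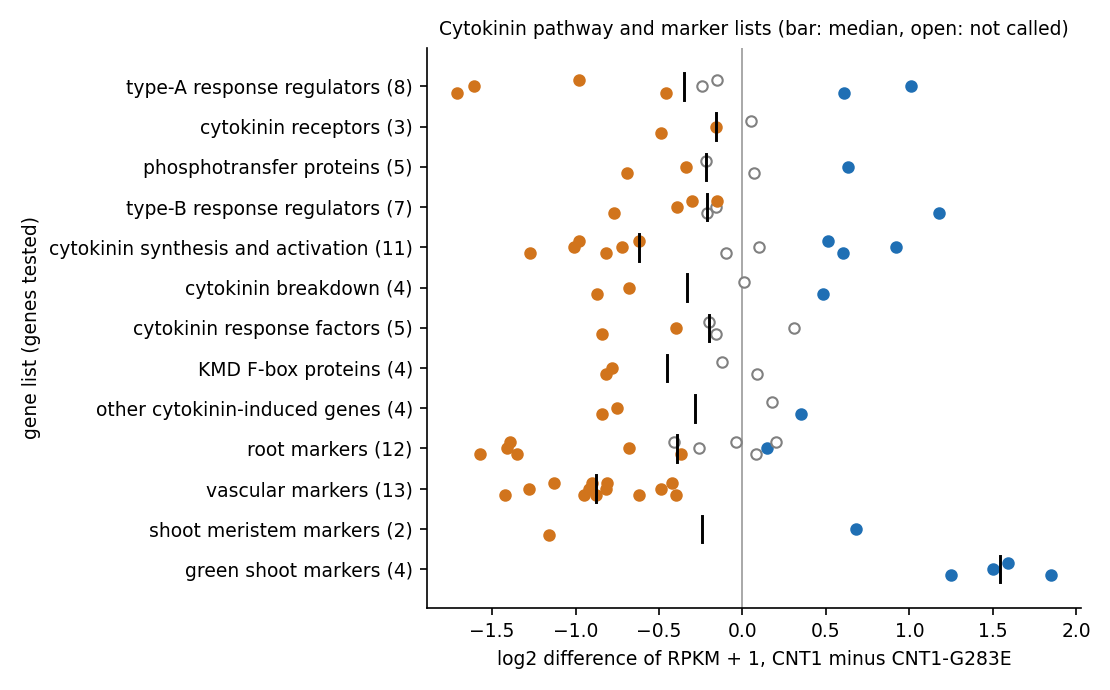
Differences of every tested gene of the cytokinin and marker lists, CNT1 minus CNT1-G283E on the log2(RPKM + 1) scale, with the number tested in parentheses, blue for called higher, orange for called lower, open for not called and a black bar for the list's median. The 13 vascular markers all lie below 0 with a median of -0.88, the 4 green shoot markers all lie above 0 with a median of 1.55, and the cytokinin lists hold genes on both sides or near 0.

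Organ and tissue markers differed between the same libraries, in which 31.1% of all genes tested were called higher and 29% lower. All 13 vascular markers were lower in CNT1 (median -0.88), and their summed level was 303 to 307 RPKM in CNT1 and 540 to 582 in CNT1-G283E. SEOR1, of sieve elements, was at -1.42 and TMO6 at -1.28. Of 12 tested root markers 6 were lower and 1 higher (median -0.39), with sums of 224 to 227 and 497 to 531 RPKM over all 17 on the list. CASP2, of the root endodermis, was at -1.41, while SCR was at 0.15, a call lost in 9 of the alternatives. All 4 green shoot markers, among them the light-harvesting gene LHCB2.2 (1.85) and the Rubisco small subunit gene RBCS1A (1.59), were higher (median 1.55), with sums of 7104 to 7146 and 2370 to 2472 RPKM. Of the shoot meristem markers, STM was higher (0.68) and KNAT1 lower (-1.16). No marker of these lists was listed at 0 in all libraries. The part of these marker differences in those of the type-A genes was not tested, and in whole seedlings fewer cells of a type and less RNA per cell cannot be told apart.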

How the data were processed

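The series holds poly(A) RNA-seq of 4 seedling libraries, 2 per group. Per the submitters' processing notes, Bowtie2 2.2.2 and the TAIR10 genome were used; the sources used here do not give how reads were assigned to genes. The authors deposited RPKM for 27416 gene models, 1 table per library. Values were taken as log2(RPKM + 1), and limma 3.58.1 in R 4.3.3 tested the 19201 genes that reached 1 RPKM in 2 or more libraries (group as the only term, empirical Bayes with intensity trend, Benjamini-Hochberg adjustment over all genes tested). A call is an adjusted p under 0.05; such differences understate the change of low genes. Fold values are ratios of mean RPKM.

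Depth was recovered from the steps of the values: each of the 24360 rows above 0 gave whole reads within 0.001 reads, at the annotated length or at the shortest whole-number length not under the coding length. These reads sum to 99.9% of the denominators. For a single gene a multiple of that length would give whole reads too and would multiply its reads. Intervals from reads cover counting error only.

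Names, coordinates and sequences come from the TAIR10.1 RefSeq annotation, which matched 26719 rows. Members, lists and tests were chosen with earlier results of these data known. Named genes are the members, the receptors and, in each other list and each direction, the 1 or 2 called genes of largest difference, of which 1 is not reported here. CRY1, which the transgenes derive from, and AT1G49700, AT2G07440, AT2G11620, AT3G45800 and AT5G62910, which share bases with members, were added after their values were seen. Alternatives were 3 other scalings, a pseudocount of 0.1, other filters, no trend, limma-voom on recovered reads, a replicate block, each library left out and a 2-fold minimum. Python 3.11.15 and scipy 1.17.1 were used.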

Additional observations from a re-analysis of the deposited data

How the results depend on the processing

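The calls of ARR4, ARR5, ARR6, ARR8 and ARR9 kept their direction and stayed past the threshold in all 13 alternative fits, with differences of -1.04 to -0.92, -1.71 to -1.54, -1.84 to -1.61, -0.52 to -0.41 and 0.98 to 1.04. ARR7 was called in none of its 12 fits. The 2 members called higher became 1 with a filter at a mean of 5 RPKM, which removes ARR16, ARR3 and ARR7, and ranged from 1 to 2 when libraries were left out. With a 2-fold minimum 1 member was higher and 2 lower, and 755 genes were higher and 1009 lower over the whole table, in place of 5964 and 5566. With each library left out in turn, 4476 to 5918 genes were higher and 4468 to 5529 lower, and 4 to 5 members were lower, ARR3 being the fifth without CNT1-G283E replicate 1. With the replicate number as a block, 5791 genes were higher and 5423 lower, and 2 members higher and 4 lower. Whether the numbers pair the samples is not given. Deviations from the group means of same-numbered libraries correlated at -0.023 over 19201 genes. That shows no gene-by-gene pattern shared by same-numbered libraries, and a shift equal in all genes would not enter this correlation. It cannot tell whether same-numbered libraries were grown or prepared together. Without a low-value filter ARR15 was at 0.14 (adjusted p = 0.298) and ARR17 at -0.05 (adjusted p = 0.768). The ratio of the summed family level was 0.85 with median-of-ratios scaling, an alternative added after seeing the data, as were the other scaling and the left-out libraries for that ratio. The 2 libraries per group and the few reads of ARR15, ARR16 and ARR17 limit the precision.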
